A study of Mus musculus with 2 samples.

Results

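The genes described here are the D-type cyclins Ccnd1, Ccnd2 and Ccnd3, their kinase partners Cdk4 and Cdk6, and the Cdk inhibitors Cdkn1a (p21), Cdkn1b (p27) and Cdkn2c (p18). They are 8 of the 28380 genes in the tables and were chosen by name, with earlier results of these data known. All 8 were listed in both libraries and had at least 20 UMIs (unique molecular identifiers, each marking 1 captured RNA molecule) in each of the 3 main cell classes.

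Single-cell RNA sequencing was run on non-haematopoietic cells of femur and tibia from C57BL/6 mice at postnatal day 30, after depletion of lineage-positive, CD45+ and CD117+ cells. The Control library came from mice of genotype Dach1OE +/f, which carry the inducible Dach1 transgene without a Cre. The Dach1OE library came from mice that carry this transgene and Apj CreERT2, a tamoxifen-inducible Cre under the promoter of Aplnr (Apj), a gene of capillary endothelium. Both groups received tamoxifen (on the first days after birth per the methods), so the groups share the transgene, the agent and the age. Each library pooled 2 mice, male and female, and there was 1 library per group. No test between groups is therefore possible, no p-value is given, and every interval covers counting error only (95%).

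D-type cyclins are made in response to growth signals and activate Cdk4 and Cdk6, which phosphorylate the retinoblastoma protein and its relatives and so release E2F factors that drive entry into S phase. Cdkn2c is an INK4 inhibitor that binds Cdk4 and Cdk6 directly. Cdkn1a and Cdkn1b are Cip/Kip inhibitors that block cyclin E and cyclin A complexes with Cdk2, and Cdkn1a is a classical target of p53. In growing bone, cells of the growth plate and of the vessel front divide, whereas hypertrophic chondrocytes and osteocytes have left the cell cycle.

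The Control library held 143986818 UMIs in 28720 cells and the Dach1OE library had 166999989 UMIs in 32028 cells, of which 26466 and 29317 passed the filters. The libraries shared 879 cell barcodes, or 3.32% of Control and 3.0% of Dach1OE cells. Cells were sorted into classes by how many of 12 markers of each class they expressed, which gave 9840 Control and 10168 Dach1OE endothelial cells (ECs), 4901 and 3823 stromal cells, and 4521 and 6353 chondrocytes. A gated EC expressed a median of 10 of the 12 endothelial markers and a gated chondrocyte 12 of 12, while a stromal cell expressed 7 of 12. The genes marking chondrocytes were also seen outside the class, with a median of 2 of 12 in every other class. Within the classes, further marker lists separated bone marrow (bmEC), metaphyseal (mpEC), arterial (aEC) and type R (rEC) ECs, osteoblasts (OB), osteocytes (OCY), diaphyseal (dpMSC) and metaphyseal (mpMSC) mesenchymal stromal cells, and upper, prehypertrophic and hypertrophic chondrocytes. Cells with at least 3 of 12 G2/M markers formed the pEC, pBMSC and cycling chondrocyte gates. Each name stands for cells like that type. Some gates are loose. Upper chondrocytes had a median of 3 of 6 of their own markers, OCYs 5 of 10 and rECs 6 of 12. Upper chondrocytes held as many prehypertrophic markers as their own, with a median of 3 of 6. OCYs also kept a median of 8 of 10 OB markers, and hypertrophic cells kept a median of 5 of 6 prehypertrophic markers beside 4 of 6 of their own. Dach1 itself was at 5.46 CPM (a gene's share of the UMIs of a cell type, scaled to 1000000) in Control ECs and 187 CPM in Dach1OE ECs.

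Ccnd1, a cyclin induced by growth signals, was highest in endothelial types in both libraries. In the Control library it was highest in mpECs at 487 CPM (465 to 509), followed by rECs at 356 CPM and pECs at 241 CPM. The next levels were 203 CPM in bmECs, 187 CPM in aECs and 182 CPM in upper chondrocytes, and these neighbours did not differ beyond counting error. At the other end it was at 25.9 CPM in OBs, 18.7 CPM in OCYs and 11.2 CPM (56 UMIs) in dpMSCs, again with overlapping intervals between neighbours. In the Dach1OE library rECs and mpECs stood level at 1051 CPM each, and dpMSCs were still lowest at 12.4 CPM. Free endothelial RNA may bear on these low values, which was not tested. Doublets or wrongly gated cells would give the same marker share and cannot be told apart from it. The level of 6 endothelial markers in dpMSCs, as a share of their level in ECs, would carry 4.14 of the 11.2 CPM in Control (36.9%) and 11.1 of the 12.4 CPM in Dach1OE (89.8%). In blood and erythroid cells, which the depletion left behind in part, Ccnd1 was at 13.2 and 12.4 CPM in Control and 20.04 and 17.3 CPM in Dach1OE. The same reckoning would carry 36.0% and 64.3% of the Ccnd1 of blood cells.

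**Figure D1:**
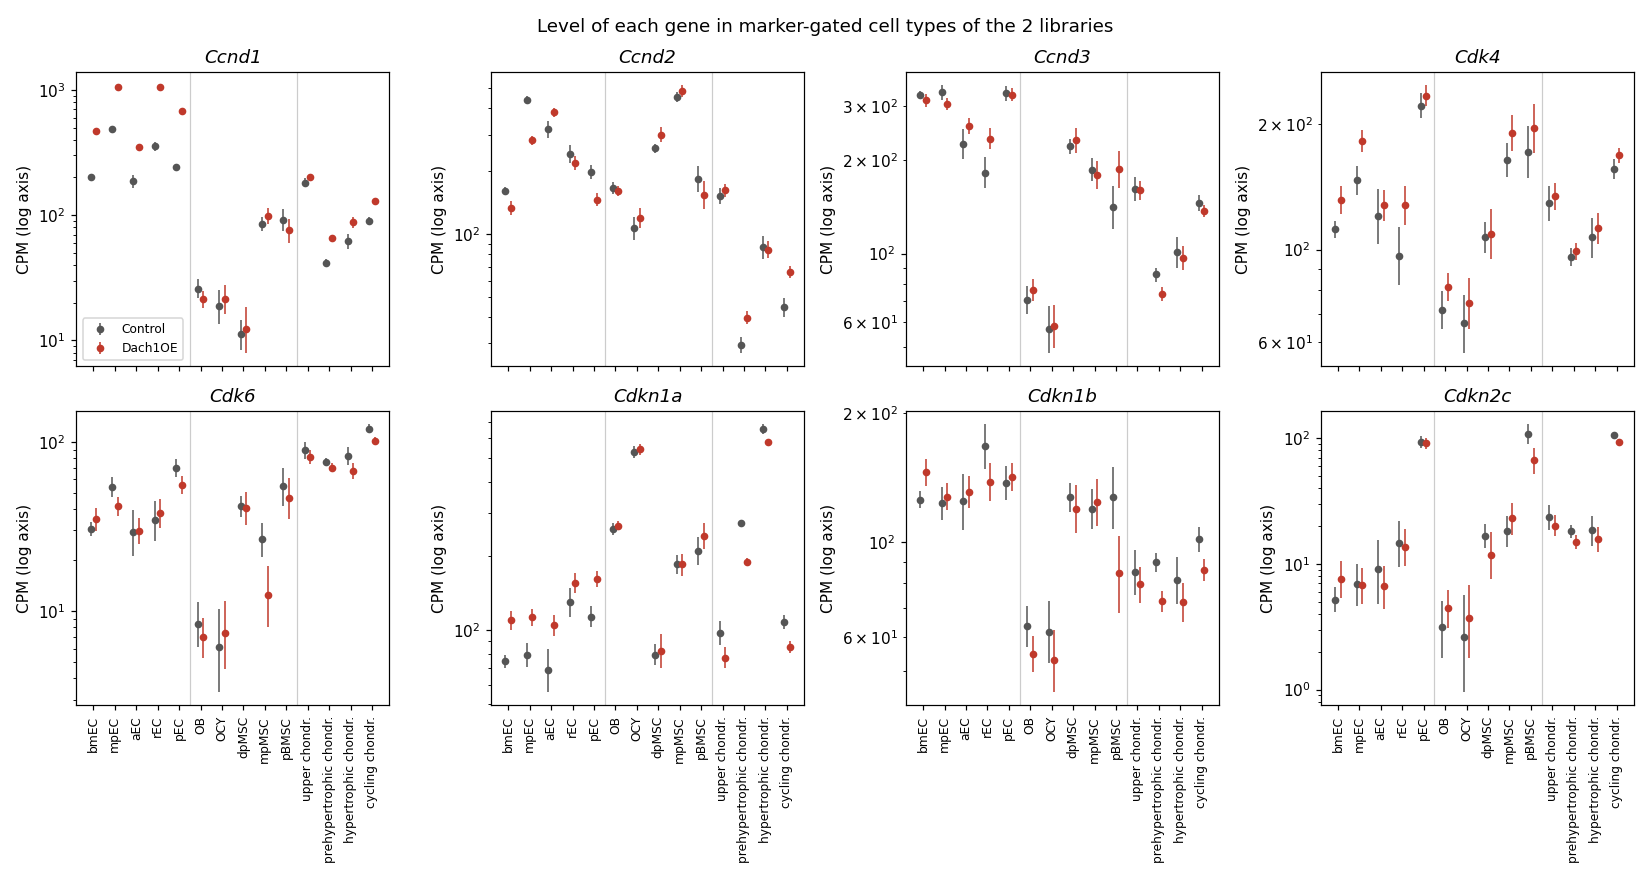
Level of each of the 8 genes in 14 marker-gated cell types, in CPM on log axes, with 1 panel per gene. Points are the summed UMIs of a type in the Control (grey) and Dach1OE (red) library and bars are exact Poisson 95% intervals. Grey lines part endothelial, stromal and chondrocyte types. Ccnd1 is at 352 to 1051 CPM in the Dach1OE endothelial types and at 187 to 487 CPM in the Control ones, and Cdkn2c stands at 66.5 CPM or more only in the 3 cycling gates.

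Ccnd2 had a different order. It was highest in mpMSCs at 456 CPM in Control and 485 CPM in Dach1OE, and in Control mpECs followed at 438 CPM with an overlapping interval. Outside these classes fibroblasts reached 587 and 491 CPM and mural cells (pericytes and smooth muscle) 496 and 462 CPM. It was lowest in prehypertrophic chondrocytes, at 29.5 and 39.9 CPM. The dpMSCs had 257 and 300 CPM of Ccnd2 while their Ccnd1 was the lowest of all 14 types.

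Ccnd3 was more even, with a 5.82-fold span in Control between mpECs at 332 CPM and OCYs at 57.0 CPM. The mpEC, pEC and bmEC values of Ccnd3 (332, 329 and 326 CPM) did not differ beyond counting error. The highest Ccnd3 of the tables lay outside the 14 types, in erythroid cells, at 802 CPM in Control and 683 CPM in Dach1OE.

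Of the kinases, Cdk4 varied 3.33-fold in Control. Its highest level was in pECs at 222 CPM and its lowest in OCYs at 66.6 CPM and OBs at 71.8 CPM, which did not differ beyond counting error. Erythroid cells again had more, at 374 and 396 CPM. Cdk6 was highest in chondrocytes among the 14 types, with 75.9 to 120 CPM in the 4 chondrocyte gates of Control. The next level, 70.1 CPM in pECs, overlapped the lowest of these. It was at 8.44 CPM (43 UMIs) in OBs and 6.09 CPM (14 UMIs) in OCYs. Free chondrocyte RNA may bear on the low end, which was not tested and cannot be told apart from doublets or wrongly gated cells. Col2a1, a collagen gene of cartilage, was found in OCYs at 1.92% of its chondrocyte level in Control, and the same share of Cdk6 would make 28.5% of the Cdk6 seen there. Blood cells had the most Cdk6, at 504 and 551 CPM.

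The inhibitor Cdkn1a was highest in hypertrophic chondrocytes and OCYs, which no longer divide. In Control it was at 97.6 CPM in upper, 272 CPM in prehypertrophic and 656 CPM (628 to 686) in hypertrophic chondrocytes. The values in Dach1OE were 77.3, 190 and 577 CPM. In stromal cells it was at 79.6 CPM in dpMSCs, 185 CPM in mpMSCs, 258 CPM in OBs and 530 CPM in OCYs of Control, and at 82.5, 185, 265 and 543 CPM in Dach1OE. No intervals overlapped along either series, in either library, but the series leave out the cycling gates. The pBMSCs were at 210 CPM (184 to 239) in Control, overlapping mpMSCs, and at 242 CPM (214 to 273) in Dach1OE, overlapping OBs. Cycling chondrocytes were at 108 and 85.6 CPM, overlapping upper chondrocytes in both libraries. Erythroid cells were at 10.3 and 11.6 CPM. Cdkn1b was the most even of the 8, spanning 2.71-fold in Control from 167 CPM in rECs to 61.8 CPM in OCYs, and the Control rEC, pEC and pBMSC values overlapped from one to the next. Among the 14 types Cdkn2c was highest in the G2/M gates and is taken up with them below. Outside the 14 types, fibroblasts had 53.0 and 58.7 CPM of it (67 and 35 UMIs) and erythroid cells 39.9 and 30.1 CPM. Those classes were not split by phase.

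Promoter windows are shown for the inhibitors whose levels among the 14 types were most tied to certain gates, Cdkn1a with hypertrophic cells and OCYs and Cdkn2c with the G2/M gates. RefSeq (GRCm38.p6) windows were held for 6 of the 8 genes, and Ccnd1 and Ccnd2 have no entry. Each line is the 250 bases before a start site. Capitals mark the paired CATG motif in the first line (CATG, any 6 bases, CATG), which was chosen after the sequence was read, and GGGCGG (the GC box) on either strand in the others. The windows lie at chr17:29090729-29090978 (plus strand), chr17:29093519-29093768 (plus strand) and chr4:109666757-109667006 (minus strand).
Cdkn1a start 1: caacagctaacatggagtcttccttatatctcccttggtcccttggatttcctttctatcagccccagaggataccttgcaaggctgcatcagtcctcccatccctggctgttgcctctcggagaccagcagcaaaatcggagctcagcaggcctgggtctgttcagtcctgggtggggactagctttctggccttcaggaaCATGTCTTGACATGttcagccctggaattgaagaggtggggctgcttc
Cdkn1a start 2: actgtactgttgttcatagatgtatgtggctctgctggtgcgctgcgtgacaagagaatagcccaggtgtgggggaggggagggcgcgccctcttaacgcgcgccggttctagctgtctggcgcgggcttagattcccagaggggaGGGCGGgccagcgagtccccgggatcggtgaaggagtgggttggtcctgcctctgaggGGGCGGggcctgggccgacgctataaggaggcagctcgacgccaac
Cdkn2c start 1: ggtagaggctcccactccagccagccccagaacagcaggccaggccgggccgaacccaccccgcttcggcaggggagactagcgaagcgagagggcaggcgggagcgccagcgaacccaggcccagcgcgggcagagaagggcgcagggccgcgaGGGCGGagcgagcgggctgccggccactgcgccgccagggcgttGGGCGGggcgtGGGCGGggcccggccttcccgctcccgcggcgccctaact
The paired motif, searched on both strands like the others, was in 0.490% of 32851 windows and its 1 match began 48 bases before the first Cdkn1a start. GGGCGG was in 32.7% of windows. It matched 2 times before the second Cdkn1a start and 3 times before this Cdkn2c start. None of the 4 spellings of an E2F-type motif searched (TTTGGCGC, TTTCGCGC, TTTGCCGC and TTTCCCGC), found in 1.86% of windows, was in these 3. The other start of Cdkn2c held none of the searched motifs. The files do not say which start a UMI came from.

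The comparison of Dach1OE with Control asks how these genes stood in mice with the Aplnr-driven Cre and the Dach1 transgene. In the Dach1OE library a Dach1 UMI was found in cells of each EC type, arterial ones included (503 aECs with one and 647 without). Control mice lack the Cre, so Cre and Dach1 cannot be told apart. Ccnd1 was at 275 CPM (9524 UMIs) in Control ECs and at 742 CPM (26082 UMIs) in Dach1OE ECs. That is a 2.70-fold higher level, or 1.43 (1.40 to 1.47) on the log2 scale. Ccnd1 was the only one of the 8 past 1.5-fold in ECs, and 8.70% of the 16552 genes with at least 20 UMIs were that much higher, so 1 of 8 is near the background and says nothing about the genes as a group. Downward 0 of 8 passed, beside 9.0% of genes. LTO1, which overlaps Ccnd1 on the other strand and is listed as Oraov1, was at 11.6 and 12.4 CPM.

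**Figure D2:**
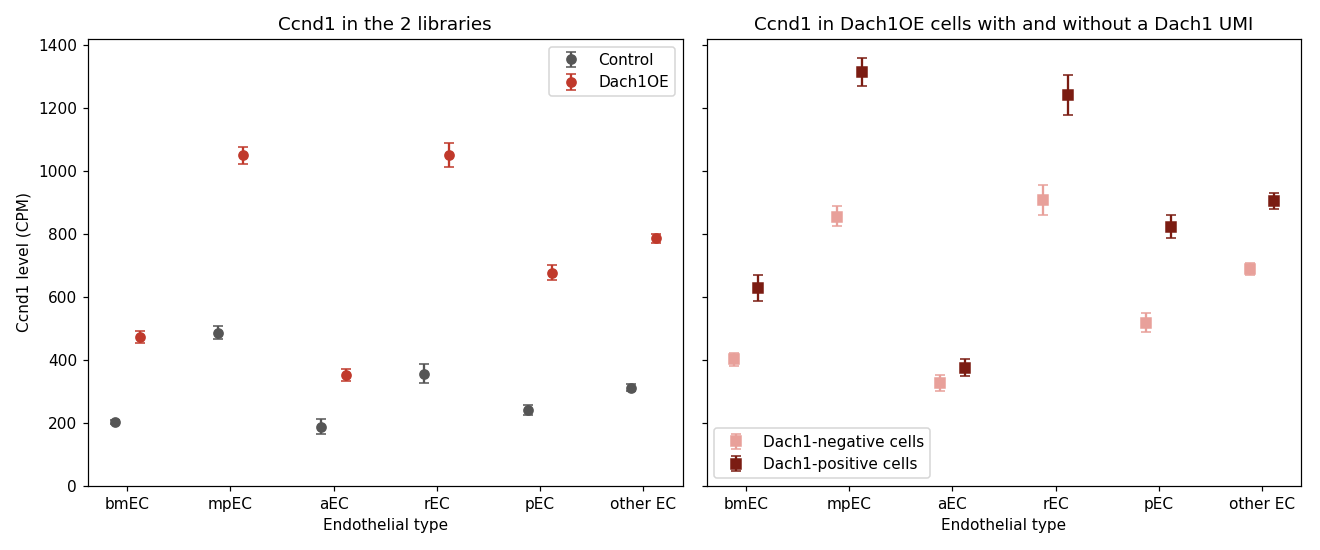
Ccnd1 level in CPM by endothelial type. Left, Control (grey) against Dach1OE (red); right, cells of the Dach1OE library without (light) and with (dark) a Dach1 UMI; bars are exact Poisson 95% intervals. Every Dach1OE point lies above the Control point of its type, and in every type the Dach1-positive cells lie above the Dach1-negative ones, least so in aECs at 376 against 326 CPM.

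Every endothelial type showed the difference. Ccnd1 went from 356 to 1051 CPM in rECs, a log2 ratio of 1.56 (1.43 to 1.69). It went from 241 to 677 CPM in pECs (1.49), from 203 to 472 CPM in bmECs (1.22) and from 487 to 1051 CPM in mpECs (2.16-fold). The smallest ratio was in aECs, at 187 and 352 CPM, a log2 ratio of 0.91 (0.72 to 1.10). The share of all genes that were 1.5-fold or more higher was 12.7% in rECs, 6.63% in pECs, 6.96% in bmECs, 7.71% in mpECs, 12.2% in aECs and 7.59% in the ECs of no named type, where Ccnd1 was at 312 and 786 CPM. With each EC type given the same weight the ratio was 1.30. The share of bmECs fell from 43.7% to 15.7% of ECs between the libraries and that of aECs went from 4.37% to 11.3%, and these gates use genes that themselves may differ between the groups.

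The cells of either sex gave the same direction. In cells with Xist and no Y-linked UMIs Ccnd1 was at 287 and 732 CPM, and in cells with Y-linked and no Xist UMIs at 271 and 752 CPM. The log2 ratios were 1.35 and 1.47. Each such pair sets 1 mouse against 1 mouse if each library held a female and a male, so the animals and the groups cannot be told apart within it. Between the pairs, sex and animal cannot be told apart. ECs with neither or both kinds of UMI were left out, so 3130 Xist and 2367 Y-linked cells of 9840 Control ECs were used.

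The same rise was seen as a share of cells. With each cell thinned to 1000 UMIs, 21.7% (20.9 to 22.6) of Control and 43.6% (42.6 to 44.6) of Dach1OE ECs had a Ccnd1 UMI, and 1.18% and 8.36% had at least 3. Unthinned shares were 45.2% and 67.4%, at median depths of 2837 and 2835 UMIs. Erythroid cells, where Ccnd1 was near its lowest, had a UMI in 0.887% and 1.56% of thinned cells at unthinned median depths of 7103 and 8048 UMIs.

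Within the Dach1OE library, Ccnd1 was at 884 CPM in the 3818 ECs with a Dach1 UMI and at 630 CPM in the 6350 without one, a log2 ratio of 0.49 (0.45 to 0.52). The ratio was 0.49 in Xist and 0.50 in Y-linked cells and ran from 0.21 in aECs to 0.67 in pECs. Cells with a Dach1 UMI were deeper (median 3498 against 2525 UMIs), and among ECs with 3000 or more UMIs, at medians of 4790 and 4400, the ratio was 0.57. The Dach1-negative cells were also well above Control ECs at 275 CPM. A cell with no Dach1 UMI may still express it, and a cell with one may hold free Dach1 RNA, so these groups are not clean. A Dach1 UMI was found in 37.5% of the ECs of this library (median 2835 UMIs) and in 1.72% of Control ECs (2837 UMIs). In the other classes of the Dach1OE library the share was 2.5% in mural cells (2007 UMIs), 2.12% in stromal cells (5299 UMIs), 4.12% in chondrocytes (9565 UMIs) and 6.73% in erythroid cells (8048 UMIs). After thinning to 1000 UMIs per cell, ECs were at 16.7% and these 4 classes between 0.289% and 1.4%. Blood cells held one in 13.3% of Dach1OE and 14.7% of Control cells, or 4.43% and 4.46% after thinning. Over all ECs none of the other 7 genes had a ratio as large as that of Ccnd1 (0.49), the next being Cdk6 at -0.23. The share of all genes was not counted for this split, so it is not known how common such ratios are. Ccnd2 was at -0.14, with -0.48 (-0.63 to -0.33) in mpECs and -0.39 in bmECs but 0.34 (0.19 to 0.49) in aECs. It was also lower in pECs (-0.30) and ECs of no named type (-0.31), and within counting error in rECs (-0.11). Within rECs, Cdk6 (-0.84, -1.50 to -0.22) and Cdkn1a (-0.74, -1.04 to -0.44) had larger ratios.

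**Figure D3:**
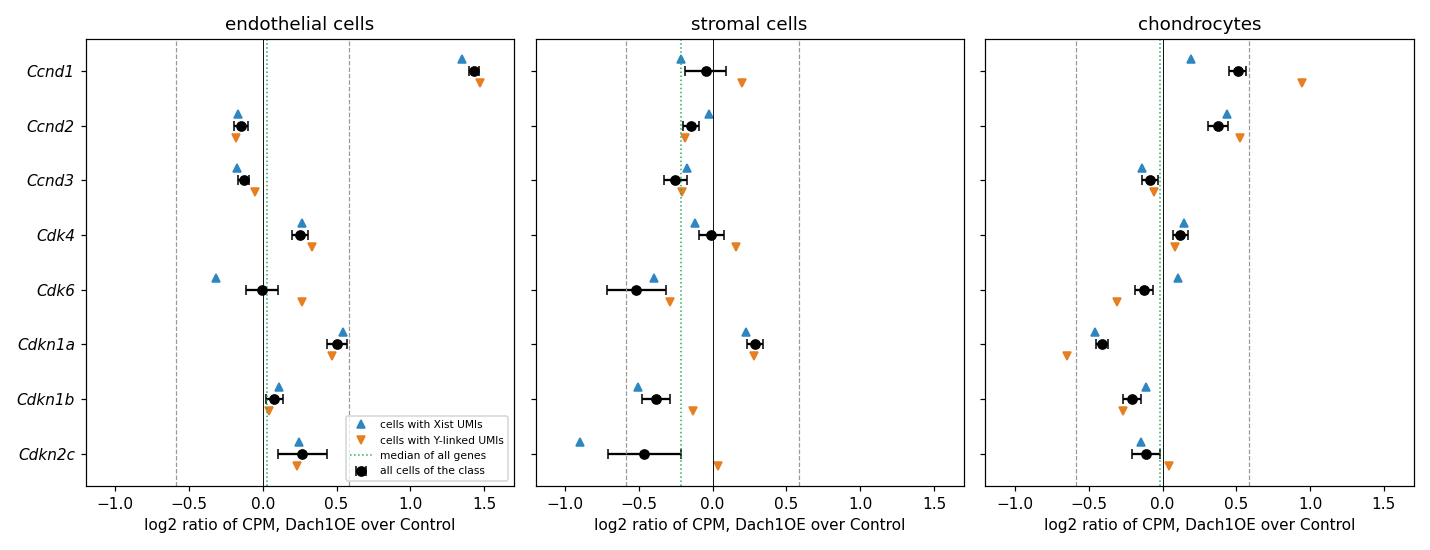
Log2 ratio of CPM, Dach1OE over Control, for the 8 genes in endothelial cells, stromal cells and chondrocytes. Black points are all cells of a class with exact 95% intervals, triangles are cells with Xist (blue) or Y-linked (orange) UMIs, dashed lines are 1.5-fold and the dotted green line is the median of all genes. Ccnd1 in endothelial cells, at 1.43, is the 1 class value outside the dashed lines.

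Among the other endothelial members, Cdkn1a was at 84.4 CPM in Control and 120 CPM in Dach1OE, a log2 ratio of 0.51 (0.44 to 0.57), under the 1.5-fold limit. It was higher in each EC type, from 0.26 in rECs (130 and 156 CPM) to 0.60 in aECs (69.2 and 105 CPM), and in both sexes (0.54 and 0.47). In aECs it passed 1.5-fold beside Ccnd1, so 2 of 8 did, beside 12.2% of genes. Between Dach1-positive and Dach1-negative ECs its ratio was 0.13, and it was 0.02 (-0.08 to 0.13) among cells with 3000 or more UMIs. By type, Dach1-positive cells had more Cdkn1a in bmECs (0.30, 0.04 to 0.56), mpECs (0.34, 0.12 to 0.57) and pECs (0.27, 0.06 to 0.47). In aECs (-0.10) and ECs of no named type (0.14) the difference was within counting error. In rECs the Dach1-positive cells had less, at 112 against 188 CPM.

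Ccnd2 did not move with Ccnd1. It was at 236 and 213 CPM in ECs, a log2 ratio of -0.15, and -0.27 with the EC types weighted equally. It was lower in bmECs (-0.26), pECs (-0.44) and ECs of no named type (-0.57), and at -0.14 (-0.33 to 0.04) in rECs, within counting error. In mpECs it went from 438 to 281 CPM (-0.64), past 1.5-fold as were 7.14% of genes in that type in this direction, while in aECs, where it is also high, it went from 319 to 384 CPM (0.27). Cdk4 was slightly higher at 134 and 159 CPM (0.25), by 0.23 in bmECs, 0.31 in mpECs and 0.40 in rECs, while in aECs (0.09), pECs (0.08) and ECs of no named type (0.09) it was within counting error. Cdk6 was level at 40.5 and 40.3 CPM, but its ratio was -0.32 in Xist cells and 0.26 in Y-linked cells. Ccnd3 (-0.13) and Cdkn1b (0.08) moved little over all ECs. Ccnd3 was at -0.12 in mpECs and -0.06 in bmECs, but at 0.37 (0.17 to 0.57) in rECs and 0.19 (0.01 to 0.38) in aECs. Cdkn1b was at 0.21 in bmECs, 0.05 in mpECs and 0.07 in aECs, and went from 167 to 138 CPM in rECs. Cdkn2c went from 15.9 to 19.2 CPM (0.27), but was at -0.06 with the EC types weighted equally. In ECs outside the G2/M and S gates it was at 0.09 (-0.19 to 0.36), a value within counting error. The shares of ECs in the G2/M gate were 5.97% and 8.62% (2.81% and 4.26% after thinning).

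In stromal cells Ccnd1 was at 38.7 CPM (862 UMIs) and 37.4 CPM (816 UMIs), a log2 ratio of -0.05 (-0.19 to 0.09). The share of 6 endothelial markers would carry 3.27 CPM of this in Control (8.45%) and 7.16 CPM in Dach1OE (19.1%). Whether free RNA bears on the ratio was not tested, and it cannot be told apart from doublets or wrongly gated cells. No member passed 1.5-fold in stromal cells, where 2.89% of 15537 genes were that much higher and 15.7% that much lower. The median gene was at -0.21, and a scaling by the median of ratios turns the sign of Ccnd1 (0.17), Ccnd2 (from -0.15 to 0.07) and Cdk4 (from -0.01 to 0.21). Cdk6 had the lowest ratio at 22.8 and 15.9 CPM (-0.52, -0.72 to -0.32), and outside both cycling gates it passed 1.5-fold (-0.61), as did 16.6% of genes in this direction, though relative to the median gene of those cells it was at -0.39, under the limit. Among stromal types its ratio, not its level, was lowest in mpMSCs, at 26.5 CPM (74 UMIs) and 12.5 CPM (25 UMIs), a log2 ratio of -1.09 (-1.80 to -0.42). This was the 1 member past 1.5-fold among the 8 in mpMSCs, where 7.04% of genes were that much lower, and the interval holds values inside the limit. In the pBMSC gate Cdkn1b (127 and 84.5 CPM) and Cdkn2c (108 and 66.5 CPM) passed downward, with 173 and 152 cells behind them and a background of 13%. Relative to the median gene of that gate Cdkn1b was at -0.48, under the limit, and Cdkn2c at -0.59.

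Cdkn1a in stromal cells was at 232 and 283 CPM (0.29), but 0.04 in OBs, 0.03 in OCYs, 0.05 in dpMSCs and 0.00 in mpMSCs, each within counting error, and 0.25 in stromal cells of no named type. With each stromal type given the same weight its ratio was 0.09. OBs were 14.0% of Control and 27.7% of Dach1OE stromal cells, dpMSCs 35.6% and 16.6%. The median depth of stromal cells was 3610 and 5299 UMIs. Of the other stromal ratios, the same weights moved Ccnd2 from -0.15 to 0.03, Ccnd3 from -0.25 to 0.08, Cdk4 from -0.01 to 0.13 and Cdk6 from -0.52 to -0.22.

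In chondrocytes no member passed 1.5-fold either, where 3.02% of 17723 genes were that much higher and 8.21% that much lower. Ccnd1 was at 82.1 and 117 CPM, a log2 ratio of 0.51 (0.45 to 0.57). The ratio was 0.19 in Xist cells (96.4 and 110 CPM) and 0.94 in Y-linked cells (60.5 and 116 CPM), where sex and animal cannot be told apart. The Ccnd1 ratio was 0.66 in prehypertrophic cells (41.5 and 65.6 CPM) and 0.15 in upper cells (182 and 203 CPM). Prehypertrophic Ccnd1 was the 1 of 8 past 1.5-fold in that gate, beside 3.33% of genes. Free endothelial RNA may bear on these levels too, which was not tested and cannot be told apart from doublets or wrongly gated cells. Summed over 6 endothelial markers, prehypertrophic cells held 1.33% and 1.04% of the EC level, and that share of EC Ccnd1 would make 3.66 CPM in Control and 7.74 CPM in Dach1OE. Over all chondrocytes the values were 4.71 and 11.9 CPM. Ccnd2 was also higher (61.4 and 79.8 CPM, 0.38), in both sexes (0.43 and 0.52), and in prehypertrophic (0.43) and cycling cells (0.56), but its ratio was 0.08 in upper cells and -0.04 in hypertrophic cells (86.6 and 84.5 CPM), both within counting error.

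Cdkn1a went the other way in chondrocytes, from 228 to 171 CPM (-0.41, -0.45 to -0.37). It was lower in every chondrocyte gate, from -0.52 in prehypertrophic to -0.18 in hypertrophic cells, and in both sexes (-0.46 and -0.65). Cdkn1b (87.9 and 76.1 CPM, -0.21) and Cdk6 (-0.13) were slightly lower and Cdk4 slightly higher (0.12).

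Cells in the G2/M gate were then set against cells in neither the G2/M nor the S gate, within each library, so that the 2 libraries give 2 values side by side. The gates used none of the 8 genes. A cell that met the G2/M rule stayed in that gate whatever its S markers. Over both libraries these cells held a median of 4 of 12 S markers in ECs and 3 of 12 in stromal cells and chondrocytes. The G2/M and S gates are therefore not cleanly separate phases. Cdkn2c stood out in all classes. In ECs it was at 93.4 CPM in G2/M and 7.05 CPM in the other cells of Control (3.73, 3.48 to 3.98), and at 90.9 and 7.48 CPM in Dach1OE (3.60). The ratios were 3.50 and 3.17 in stromal cells and 2.44 and 2.58 in chondrocytes. The S gate, at least 5 of 12 S markers and no G2/M call, gave 0.93 and 0.74 in ECs, with intervals that include 0, and 0.69 and 0.67 in chondrocytes.

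**Figure D4:**
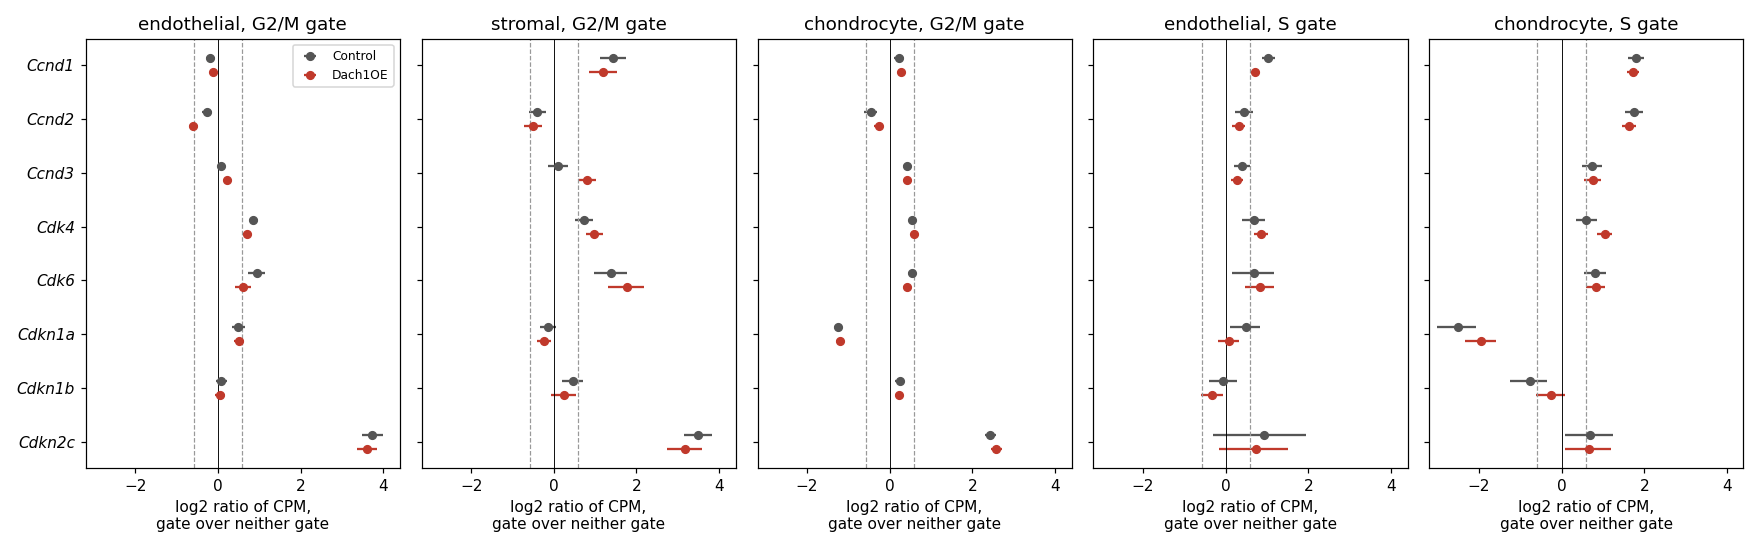
Log2 ratio of CPM, gated cycling cells over cells in neither gate, for the 8 genes in the Control (grey) and Dach1OE (red) library. Bars are exact 95% intervals and dashed lines mark 1.5-fold. Cdkn2c is at 2.44 or above in every G2/M panel, and Cdkn1a lies at -1.22 or below in both chondrocyte panels while it lies at 0.50 and 0.51 in endothelial G2/M.

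Cdk4 and Cdk6 were higher with G2/M in ECs and stromal cells of both libraries, at 0.86 and 0.71 for Cdk4 in ECs (222 against 122 CPM in Control) and at 1.38 and 1.76 for Cdk6 in stromal cells (54.6 against 21.0 CPM in Control). In ECs 3 of 8 members were past 1.5-fold upward in each library, beside 15.7% of genes in Control and 13.2% in Dach1OE, and 0 and 1 (Ccnd2) downward, beside 14.6% and 16%. The stromal numbers were 4 of 8 and 5 of 8 upward, beside 23.9% and 28.3%, and 0 downward, beside 17.3% and 13.1%. In chondrocytes 1 and 2 were higher (15.9% and 15.4% of genes) and 1 was lower in each (11.8% and 11.2%). The counts changed when depth was held equal in drawing the gate. With the gate drawn on cells thinned to 1000 UMIs, 4 and 4 members were higher in Control and Dach1OE ECs (16.6% and 15.1% of all genes) and 0 and 1 lower (20.3% and 21.1%). In stromal cells 5 and 5 were higher (31.3% and 40.4%) and 1 and 2 lower (18.1% and 14.5%). In chondrocytes 2 and 1 were higher (16.4% and 15.5%) and 2 and 2 lower (20.1% and 18.9%). Ccnd2 was then past 1.5-fold downward in every class and library except Control ECs (-0.54), and Cdkn2c upward in all of them.

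All 3 D-type cyclins had higher ratios with S than with G2/M in ECs and chondrocytes of both libraries, a difference that was not tested. For Ccnd3 in Dach1OE ECs the intervals overlapped, at 0.28 (0.13 to 0.42) with S and 0.22 (0.14 to 0.29) with G2/M. In chondrocytes of the S gate (73 Control and 106 Dach1OE cells) Ccnd1 was at 265 CPM against 76.2 CPM in Control and 358 against 107 CPM in Dach1OE, log2 ratios of 1.80 and 1.74. Ccnd2 gave 1.75 and 1.64 (208 and 247 CPM with S), where G2/M gave -0.46 and -0.27. For comparison, upper chondrocytes had 182 and 203 CPM of Ccnd1 and 153 and 162 CPM of Ccnd2. The cells in neither gate include prehypertrophic cells, with 41.5 and 65.6 CPM of Ccnd1 and 29.5 and 39.9 CPM of Ccnd2. Stage and phase are therefore not separated here. The S gate was not redrawn on thinned cells. In ECs (105 and 203 cells) Ccnd1 was 1.03 and 0.72 with S, at 559 and 1208 CPM, and -0.18 and -0.12 with G2/M. Upward past 1.5-fold in S were 4 of 8 members in ECs of each library (16% and 12.3% of genes) and 6 of 8 in chondrocytes of each (20.5% and 18.2%). Downward these were 0 of 8 in ECs (17.8% and 19.1% of genes) and 2 and 1 in chondrocytes (16.6% and 18.2%). The stromal S gate held 18 and 36 cells and is not described.

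Cdkn1a differed between the classes here as well. In chondrocytes it was at 108 CPM in G2/M against 260 CPM in the other cells of Control and at 85.6 against 199 CPM in Dach1OE, log2 ratios of -1.26 and -1.22. With S they were -2.52 and -1.95. In ECs G2/M had more of it, at 114 against 80.5 CPM (0.50) and 161 against 113 CPM (0.51). For comparison, upper chondrocytes were at 97.6 and 77.3 CPM, and the S gate was at 45.3 and 51.5 CPM.

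The other genes of the G1/S pathway were read from a list of 42 (cyclins E and A with Cdk2, other Cdk inhibitors, pocket proteins, E2F and DP factors, the Cdk-activating kinase, turnover factors and upstream regulators). All had at least 20 UMIs. In ECs 7 of 42 were past 1.5-fold upward in Dach1OE and 0 downward, beside 8.70% and 9.0% of all genes, and the list's median log2 ratio was 0.17 where that of all genes was 0.03.

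Hey1, a Notch target and marker of arterial ECs, went from 14.3 to 68.8 CPM (2.27). Cdkn1c (p57), a Cip/Kip inhibitor, went from 296 to 527 CPM (0.84), E2f1 from 12.2 to 21.3 CPM (0.80) and Myc, which drives growth, from 33.3 to 50.2 CPM (0.59). The INK4 genes Cdkn2a (1.85 and 4.07 CPM, 1.14) and Cdkn2b (1.76 and 3.36 CPM, 0.93) and the cyclin E gene Ccne2, whose product pairs with Cdk2 (5.80 and 9.84 CPM, 0.76) were the remaining ones and are low. Outside both cycling gates 6 of the 42 still passed, all of these but Ccne2, which was at 0.31 (-0.16 to 0.79), beside 9.04% of genes.

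In stromal cells 0 of 42 were higher and 3 lower (15.7% of genes lower): Cdkn1c at 107 and 67.9 CPM (-0.66), Cdkn2a at 3.72 and 2.34 CPM and the repressor E2f7 at 2.69 and 1.79 CPM, whose interval includes 0. Relative to the median gene of stromal cells they were at -0.44, -0.46 and -0.38, under the limit. In chondrocytes 1 was lower (8.21% of genes), Klf2, a flow-responsive factor of ECs, at 447 and 262 CPM (-0.77). Cdkn1c thus went up in ECs and down in stromal cells by these values, and the difference was not tested. In G2/M against neither gate, 18 of 42 were higher in ECs of each library (15.7% and 13.2% of all genes), 25 and 23 in stromal cells (23.9% and 28.3%), and 22 and 21 in chondrocytes (15.9% and 15.4%). The lower ones were 2 and 3 in ECs (14.6% and 16% of all genes), 3 and 2 in stromal cells (17.3% and 13.1%), and 4 and 6 in chondrocytes (11.8% and 11.2%).

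Across 36 profiles (18 types in 2 libraries, log2(CPM + 1), 9503 genes with a mean of at least 10 CPM), the genes most like Ccnd1 were Fkbp1a, Tspan18 and Sema6a, with Pearson's r of 0.87, 0.86 and 0.86. For Ccnd2 they were Ski, Ecm1 and Tgfb1i1 (0.90, 0.89 and 0.88), for Ccnd3 Scaf4, Baz1a and Trp53 (0.94 each), and for Cdk4 Kars, Hnrnpa1 and Srsf1 (0.95, 0.95 and 0.94). Cdk6 was most like C2cd5, Cstf3 and Sf1 (0.93, 0.88 and 0.88). For the inhibitors these were Pcsk6, Ptgis and Sparc with Cdkn1a (0.88, 0.85 and 0.84), Wipf1, Gng12 and 2610001J05Rik with Cdkn1b (0.92, 0.90 and 0.90), and 4930579G24Rik, Anln and Nucks1 with Cdkn2c (0.87, 0.86 and 0.86). Among the 8 themselves the strongest pairs were Ccnd3 with Cdk4 (0.79) and Ccnd3 with Cdkn1a (-0.82). Types of 1 library share its depth and free RNA, so these are descriptions.

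Ccnd1 lies at chr7:144929931-144939925, Ccnd2 at chr6:127125162-127152193, Ccnd3 at chr17:47505051-47599691 and Cdk4 at chr10:127063534-127067920. Cdk6 lies at chr5:3341485-3531008, Cdkn1a at chr17:29090976-29100727, Cdkn1b at chr6:134920401-134925513 and Cdkn2c at chr4:109660876-109667189 (GENCODE vM21, GRCm38). Genes on the other strand overlap all of them but Cdkn1b and Cdkn2c, and whether strand was used in counting is not given in the sources used here. The overlapping Tspan31 was at 110 and 103 CPM in ECs, beside Cdk4 at 134 and 159 CPM, so those 2 are uncertain. Bysl, which overlaps Ccnd3, was at 14.5 and 14.8 CPM.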

How the data were processed

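Transcriptomes of single bone cells were measured in 1 Control and 1 Dach1OE library. The deposited tables hold counts: the authors made reads, raw UMIs and error-corrected (RSEC-adjusted) UMIs per cell and gene with the BD Rhapsody WTA Analysis Pipeline 1.11 per the file headers (the methods name another version), on GRCm38 with GENCODE vM19 and intronic reads counted.

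From these counts, cells with 500 to 6000 genes and under 25% mitochondrial UMIs were kept, without doublet removal. A class needed at least 3 of its 12 markers and 2 more than the next class. 519 and 686 ECs, 1449 and 1346 stromal cells and 595 and 938 chondrocytes lay near that limit in Control and Dach1OE. A subtype needed at least 3 markers and a lead of 0.5 SD over the next list. These rules were settled after marker values of the gates had been seen. RSEC-adjusted UMIs were summed per library and type and divided by the type's total (CPM) with exact Poisson intervals, and log2 ratios carry exact conditional binomial (Clopper-Pearson) intervals. PCR copies are merged by UMI, and intervals cover counting error only. A gene was called past 1.5-fold with at least 20 UMIs over both libraries. For shares of cells, each cell was thinned to 1000 UMIs. The ratio and its interval were tested on simulated data of 14789 genes for ECs. There 99.0% of 200 changed genes passed 1.5-fold, and the 95% intervals held the true ratio for 93.4% of genes. No change as small as 1.5-fold was simulated, so how calls near that limit perform was not tested. Variation between mice or libraries was not tested either. The named genes are the 8 members, Dach1, pathway genes past 1.5-fold and the 3 most like genes per member. Overlapping genes and Col2a1 were added for checks. The members and lists were chosen with earlier results of these data known. Python 3.11.15 and numpy 2.4.6 were used.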

Additional observations from a re-analysis of the deposited data

Results flagged for a closer look

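Opposite directions in 2 classes of the same libraries, in cells of both sexes, drew attention to 2 genes. Cdkn1a had a log2 ratio, Dach1OE over Control, of 0.51 in ECs and 0.29 in stromal cells but -0.41 in chondrocytes. The stromal value was 0.09 with its types weighted equally, and 0.04 in OBs, 0.03 in OCYs, 0.05 in dpMSCs, 0.00 in mpMSCs and 0.20 in pBMSCs, each within counting error, while stromal cells of no named type were at 0.25. Ccnd2 was at -0.15 in ECs, where aECs went the other way at 0.27, and at 0.38 in chondrocytes. Opposite directions in the Xist and Y-linked cells of 1 class drew attention to Cdk6. Its log2 ratio in ECs was -0.32 in cells with Xist UMIs and 0.26 in cells with Y-linked UMIs, and in chondrocytes 0.11 and -0.31. With 1 library per group, these differences were not tested, and sex cannot be told apart from the single animals.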

How the results depend on the processing

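No called value changed direction under the alternatives run. Ccnd1 in ECs (1.43) was 1.47 with a limit of 10% mitochondrial UMIs, 1.35 in cells with Xist and 1.47 in cells with Y-linked UMIs, and 1.30 with EC types weighted equally. It stayed the only member past 1.5-fold in ECs under each alternative. Where all genes were counted, from 7.92% (Xist cells) to 11.3% (Y-linked cells) were that much higher. So 1 of 8 stayed near the background. In stromal cells 1 member in place of 0 passed in Xist cells (Cdkn2c, -0.90, against 0.03 in Y-linked cells), with a wider class margin (Cdk6, -0.73) and outside the G2/M and S gates (Cdk6, -0.61), the last setting being chosen after seeing the data. These settings had 15.2%, 16.3% and 16.6% of all genes past 1.5-fold in the same direction. In chondrocytes 2 passed in Y-linked cells, Ccnd1 (0.94) and Cdkn1a (-0.65), beside 4.93% of genes higher and 7.32% lower. With no filter on low counts, 6662 genes in place of 2930 were past 1.5-fold in ECs, 6291 in place of 2891 in stromal cells and 5668 in place of 1990 in chondrocytes. With the G2/M gate drawn on thinned cells, Cdkn2c was at 4.52 and 4.33 in Control and Dach1OE ECs, and Cdkn1a passed 1.5-fold there (0.75 and 0.80). Past 1.5-fold too were Ccnd2 downward in stromal cells (-0.59 and -0.76), in chondrocytes (-0.99 and -0.87) and, as before, in Dach1OE ECs (-0.87), Cdkn1a downward in Dach1OE stromal cells (-0.61), and Cdkn1b (0.81) in Control stromal cells and Cdk6 (0.64) in Control chondrocytes upward, while Cdk4 in Dach1OE chondrocytes no longer passed (0.52). Of the uncalled ratios, equal weights turned the sign of Ccnd2 (0.03), Ccnd3 (0.08) and Cdk4 (0.13) in stromal cells and of Cdkn2c in ECs (-0.06). The causes of these shifts were not tested. Leaving out shared barcodes, also chosen after seeing the data, kept each member count. No paired analysis was possible because each group has 1 library and the labels give no shared replicate numbers. Leaving out a replicate was not run for the same reason. Differences under counting error in types with few UMIs, such as Cdk6 in OCYs, are not detectable at this depth.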
